A study of Drosophila melanogaster with 6 samples.

Results

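The genes described here are Send1, Send2, CG31681, CG17234, CG17239, CG32277, CG32834, CG32751 and CG9897, a set listed as secreted serine proteases of the female sperm storage organs. They were chosen by name, with their fold changes in these data already known, and all 9 have a row among the 14862 genes of the authors' deposited table. The table compares Drosophila melanogaster embryos from oocytes that expressed InR-DN, a dominant-negative insulin receptor that blocks signalling by the normal protein, with control embryos, whose mothers' oocytes expressed green fluorescent protein (GFP) instead. Each group has 3 samples, each a pool of 200 embryos labelled as 16 to 20 h old, and the comparison asks what lowered insulin signalling in the mother's oocytes does to gene expression in her progeny. The labels name no driver of either transgene and are silent on whether samples come from different crosses, so that p-values may measure technical spread only. The sources used here do not state which group is the numerator of the deposited fold change. The groups are therefore called the positive side, the numerator, and the negative side, the denominator, and neither side is tied to InR-DN or GFP.

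Trypsin-like serine proteases cut proteins with a catalytic site built from a histidine, an aspartate and a serine. Many are secreted as inactive precursors, and relatives that lack a catalytic residue are called serine protease homologues. In the fly the paired spermathecae and the seminal receptacle store sperm after mating. Secretory cells of the spermathecae release proteins into the storage lumen, and the nuclear receptor Hr39 and the Runx factor lozenge (lz) are needed for these glands to form. Send1 and Send2 are named as spermathecal endopeptidases. None of these organs exists in an embryo.

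The label of the set was checked against the annotation, since no protein sequence was used here. RefSeq's synonyms give 5 members an SP number, the mark of a serine protease: Send1 is SP163, CG31681 is SP230, CG17234 is SP113, CG17239 is SP138 and CG32277 is SP183. CG32834 is named SPH196 and CG9897 is named SPH195, the mark of a protease homologue, and Send2 carries both SP190 and SPH190. The 8 named genes each have a single exon in Ensembl release 115. Their proteins run from 239 residues in Send2 to 265 in CG9897, except CG32834 with 556. CG32751 differs from the rest: it carries neither kind of name, has 4 exons and encodes 525 residues, so that the annotation used here does not show it to be a serine protease. It is reported under the list's name only.

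Whole reads per library were recovered for every member from the deposited values. The average log2 CPM (counts per 1000000 reads) fixes a weighted sum of reads over the libraries, and the fold change and test statistic narrow the solutions further. The authors' fit held 12 libraries: 3 on the positive side with effective sizes of 25.7 to 40.5 in units of 1000000 reads, 3 on the negative side with 23.4 to 31.1 units, and 6 further libraries of 15.8 to 33.0 units that took no part in the fold change and are not described in those sources. Each of the 9 members had exactly 1 solution within its search, and its refitted log2 fold change came within 1e-07 of the deposited one. For CG17234, Send2 and CG32751 the search covered all libraries. For the other members it allowed at most 3 reads outside the negative side and stopped at the fewest that fitted. Distributions with more reads outside that side were not tried for them. A gene with no read could still reach 0.0290 CPM over the positive side, 0.0357 CPM over the negative side or 0.0188 CPM over the further libraries, the level of 3 reads. Limits and intervals cover counting error only. A fold given as at least sets the 3-read level of the positive side against the pooled negative-side level. It leaves out the counting error of the negative side. Of 33 cuticle-related genes of the Tweedle and Osiris families, known from late embryos, 14 had no read in the compared libraries, and the median of the 33 upper limits there was 0.0160 CPM, the level of 3 reads over the 2 sides. The labelled late embryonic stage was thus poorly marked by these families. Of 14 eggshell genes, by contrast, 0 were without a read in the compared libraries, and their median average over the 12 libraries was 1360 CPM. How either list bears on the members was not tested.

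All 9 genes had a negative deposited fold change, and 96.7% of their 946 reads in the fit came from the negative-side libraries. Together they had 3, 2 and 2 reads in the positive-side libraries, against 350, 314 and 251 reads in the negative-side libraries, each list running from the largest library to the smallest. Their summed level was 0.0685 ± 0.0130 CPM on the positive side, against 10.9 ± 0.336 CPM on the negative side (SD, n = 3 libraries each). The positive side held 0.00622 of the pooled negative-side level, with an exact 95% interval of 0.00249 to 0.0129. The edgeR likelihood ratio test of the authors' deposited table called 0 of the 9 positive and 7 negative at a Benjamini-Hochberg adjusted p under 0.05. Over all genes it called 2.30% positive and 2.19% negative. The table's log2 fold changes of the called members ran from -9.03 for CG32834 to -6.39 for CG17234, sizes that depend on the prior count because the positive side held at most 1 read of each. Since this contrast chose the members, the counts and sizes are a description and no test is drawn from them. In bulk RNA, fewer cells of a type and less RNA per cell cannot be told apart.

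**Figure D1:**
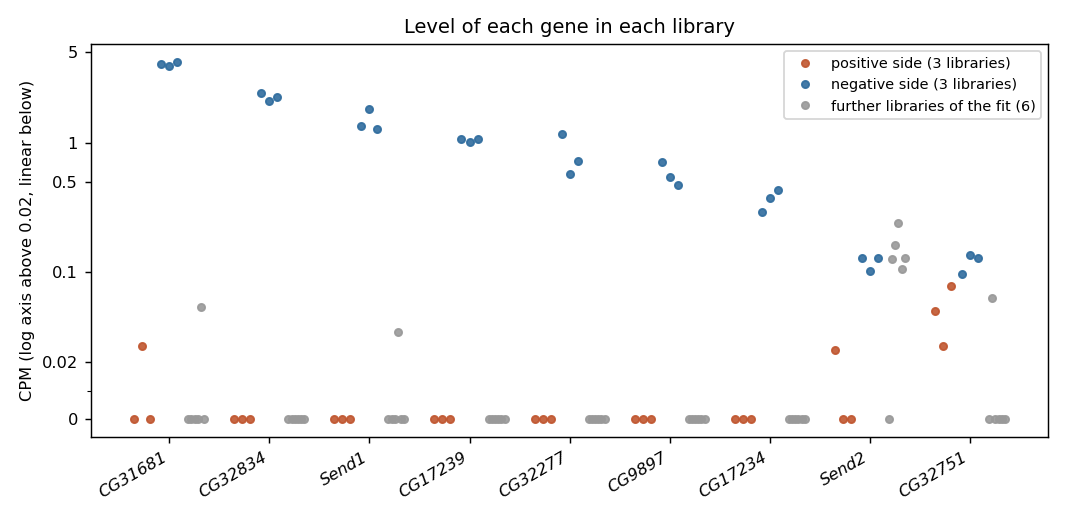
Level of each of the 9 genes in each of the 12 libraries of the authors' fit, in CPM on an axis that is logarithmic above 0.02 and linear below; points are libraries, with the positive side left, the negative side in the middle and the further libraries right. For 6 genes every positive-side point lies at 0, while CG31681 lies at 3.96 to 4.23 CPM on the negative side.

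CG31681, a predicted trypsin-like protease, was the most abundant member, also per length of transcript. It had 0, 1 and 0 reads in the positive-side libraries, against 126, 117 and 99 reads in the negative-side libraries. The sides did not overlap, and the 3 negative-side libraries lay close together at 4.08 ± 0.139 CPM (SD, n = 3). With its 1 read, the positive side had 0.00238 of the negative-side level, with an exact 95% interval of 6e-05 to 0.0133. One read was also found in the further libraries. An annotated gene, CG4271, overlaps it on the opposite strand. No source used here states whether counting used strand, so reads of such a pair cannot be told apart.

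Send1, a spermathecal endopeptidase, had 0, 0 and 0 reads in the positive-side libraries, against 42, 54 and 30 reads in the negative-side libraries. The middle-sized negative-side library was the highest, at 1.83 CPM, against 1.35 and 1.28 CPM in the other 2. Send1 averaged 1.49 ± 0.297 CPM on the negative side (SD, n = 3), and the positive side was at least 51.7-fold lower, taking 3 reads over the group as its limit. A single read was found in the 6 further libraries.

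CG17234 and CG17239, which lie in a row with Send1 on arm 2L and are also predicted proteases, were likewise found on the negative side alone. CG17239 had 0, 0 and 0 reads on the positive side, against 33, 30 and 25 reads on the negative side, or 1.05 ± 0.0289 CPM there (SD, n = 3). CG17234 had 0, 0 and 0 reads on the positive side, against 9, 11 and 10 reads on the negative side, or 0.363 ± 0.0694 CPM there. With the same 3-read limit, the positive side was at least 36.1-fold lower for CG17239 and at least 12.3-fold lower for CG17234. The counting error of the negative side, wide for the 30 reads of CG17234, is not in these folds. Neither gene had a read in the further libraries. These genes are members of 1 protease family, and whether reads of near-identical stretches were shared between them could not be checked.

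The protease homologue genes CG32834 and CG9897 lie near each other on arm 2R, and both had reads on the negative side alone. CG32834 had 0, 0 and 0 reads in the positive-side libraries, against 75, 62 and 53 reads in the negative-side libraries, and averaged 2.26 ± 0.157 CPM on the negative side (SD, n = 3). CG9897 had 0, 0 and 0 reads in the positive-side libraries, against 22, 16 and 11 reads in the negative-side libraries, and averaged 0.572 ± 0.122 CPM there. The sides did not overlap for either gene, and the positive side was at least 77.9-fold lower for CG32834 and at least 20.1-fold lower for CG9897. Both had 0 reads in the further libraries. CG32834 overlaps another annotated gene, CG32833, on its own strand. CG9897 overlaps twist (twi), the mesoderm transcription factor gene, on the opposite strand, and in the authors' deposited table twi averaged 29.5 CPM over the 12 libraries and lay at 1.69 on the log2 scale (implied SE 1.56). That average includes the further libraries, and how many twi reads lay in the compared ones was not recovered. The gene Spn28Da has the same log2 fold change and implied SE as twi, 1.69 and 1.56. Its recovered reads were 1, 0 and 0 in the positive-side libraries, 0 in the negative-side libraries and 17 in the further libraries. Whether twi likewise had so few reads in the compared libraries was not tested.

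CG32277, a predicted protease on arm 3L, was the least even of the called members. It had 0, 0 and 0 reads in the positive-side libraries, against 36, 17 and 17 reads in the negative-side libraries, that is 1.16, 0.575 and 0.726 CPM there. The largest negative-side library was the highest, and the lowest of the 3 still stood clear of the positive side, which was at least 28.7-fold lower. Its scatter over the negative-side libraries was 3.30 times what counting alone gives, measured as the chi-square over its degrees of freedom. The same ratio was 1.66 for Send1 and 0.121 for CG31681. CG32277 overlaps gry on the opposite strand, whose row in the authors' deposited table gives an average of 97.0 CPM and a log2 fold change of -0.06 (implied SE 0.24, from the test statistic).

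Send2, the second spermathecal endopeptidase, was scarce and was not called. It had 1, 0 and 0 reads in the positive-side libraries, against 4, 3 and 3 reads in the negative-side libraries, and 0, 4, 5, 7, 2 and 2 reads in the further libraries, where no called member had more than 1 read in all. Its pooled level was 0.00966 CPM on the positive side (exact 95% interval 0.000245 to 0.0538), 0.119 CPM on the negative side (0.0570 to 0.219) and 0.125 CPM in the further libraries (0.0764 to 0.193). The positive side had 0.0813 of the negative-side level, with an exact 95% interval of 0.00187 to 0.572. The levels of the negative-side and the further libraries overlapped. Send2 lay just outside the call: edgeR's test in the authors' deposited table gave it an adjusted p of 0.0563, with a log2 fold change of -3.15 and an implied SE of 1.05. The called member with the largest adjusted p there was CG17234, with 1.30e-09.

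CG32751 had 2, 1 and 2 reads in the positive-side libraries, against 3, 4 and 3 reads in the negative-side libraries. In CPM the sides approached each other, with 0.0513 ± 0.0255 on the positive side, against 0.120 ± 0.0207 on the negative side (SD, n = 3 each). The ratio of the positive to the negative side was 0.407, and its exact 95% interval of 0.109 to 1.31 includes equal levels. A difference of the size seen in the called members lies outside that interval. Its 2 reads in the further libraries fell in 1 library. In the authors' deposited table its log2 fold change was -1.23 (implied SE 0.72), and edgeR's adjusted p was 0.667.

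The members' reads were spread over the negative-side libraries nearly in proportion to depth. Of the 915 negative-side reads of the 9 genes, the largest, middle and smallest library held 38.3%, 34.3% and 27.4%, where their shares of the effective depth were 37.0%, 35.2% and 27.8%. The summed level was 11.2, 10.6 and 10.7 CPM in these libraries, so the highest exceeded the lowest 1.06 times. Outside the negative side the 7 called members had 3 reads in 9 libraries. Without each negative-side library in turn the mean summed level was 10.7 to 11.0 CPM. This describes evenness only, since the members were chosen with this contrast known.

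**Figure D2:**
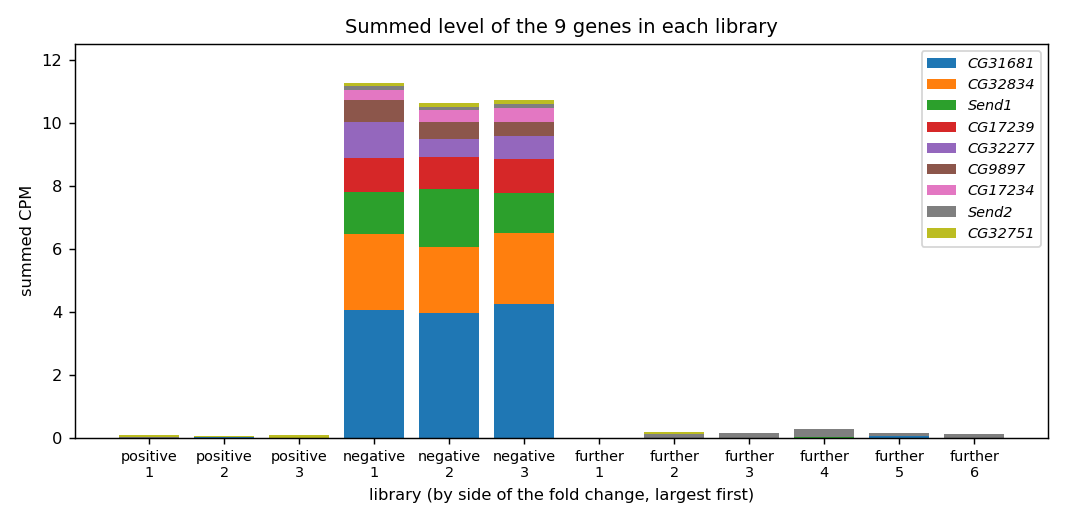
Summed level of the 9 genes in each of the 12 libraries, in CPM, with each bar stacked by gene; libraries are grouped by side and run from largest to smallest within it. The 3 negative-side bars reach 11.2, 10.6 and 10.7 CPM, and every other bar stays at or below 0.272 CPM.

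Per length of transcript the called members covered a 9.57-fold range of mean levels on the negative side. Divided by the length of the longest annotated transcript, the level was 4.30 ± 0.146 CPM per kb for CG31681 and 1.70 ± 0.339 CPM per kb for Send1 (SD, n = 3 libraries each). CG32834 followed with 1.29 ± 0.0894 CPM per kb, CG17239 with 1.26 ± 0.0347 and CG32277 with 0.964 ± 0.355. CG9897 had 0.622 ± 0.132 CPM per kb and CG17234 had 0.449 ± 0.0859. Send2 and CG32751 stood last with 0.154 ± 0.0201 and 0.0682 ± 0.0118 CPM per kb. In this order the libraries of CG31681 and Send1 did not overlap, nor did those of Send1 and CG32834. The libraries of neighbours from CG32834 down to CG17234 overlapped, so that part of the order is not separated by its spread.

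**Figure D3:**
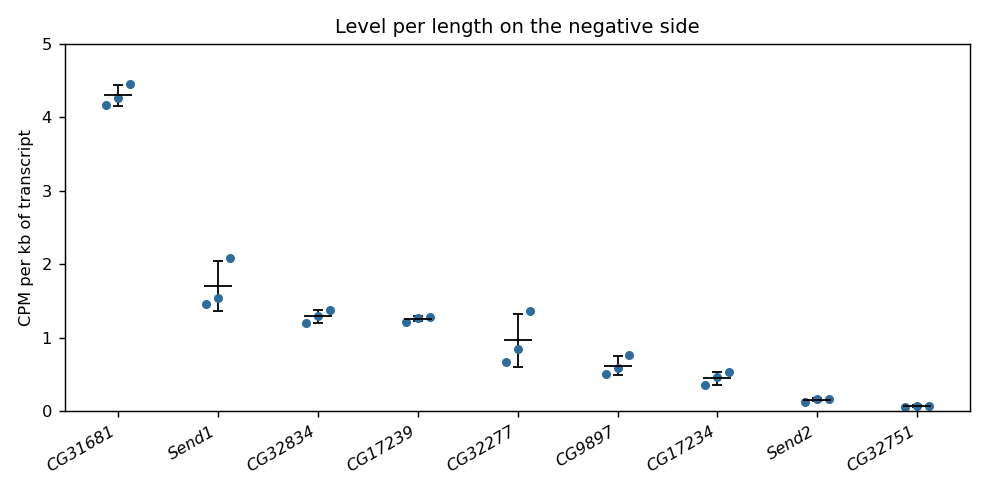
Level per kb of transcript of each gene on the negative side, in CPM per kb; points are the 3 libraries, and the horizontal mark and bars show the mean ± SD. CG31681 lies at 4.17 to 4.45 CPM per kb, above every library of the other genes.

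Position was looked at as well, and no test is drawn from it, since the members were chosen with their fold changes known. Send1, CG17234 and CG17239 are consecutive genes on arm 2L, and CG31681 lies a few genes further along the same arm. The gene directly beyond CG17239 is Ser12, another serine protease gene (SP92), which is not in the set. Ser12 is in the midgut list below, which was also chosen with earlier results of these data known. It had 0, 0 and 1 reads in the positive-side libraries, against 88, 80 and 72 reads in the negative-side libraries, and 0 reads in the further libraries. Ser12 averaged 2.87 ± 0.189 CPM on the negative side (SD, n = 3). Other genes of this stretch with a row did not share the distribution. The protease homologue genes CG17242 (SPH187) and CG4271 (SPH164), between Send1 and CG31681, have no row. Beyond Ser12, CG4267 averaged 31.5 CPM and lay at 0.46 on the log2 scale (implied SE 0.22), and between Send1 and CG31681 the genes CG34049 and CR43753 had no read in the compared libraries in the authors' deposited table.

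**Figure D4:**
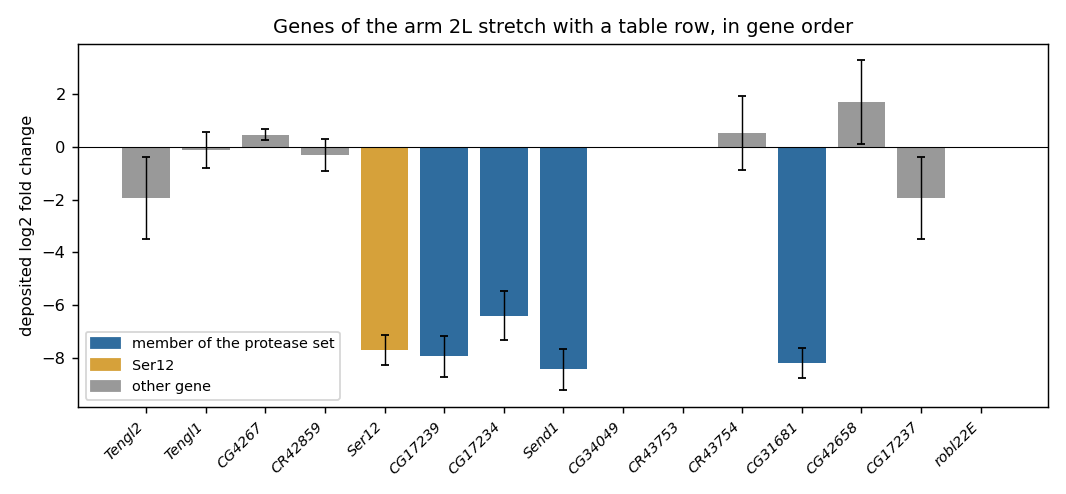
Deposited log2 fold change of genes along a stretch of chromosome arm 2L, in gene order, for genes with a row in the table; bars are the authors' values, error lines the implied SE, and a gene at 0 without an error line had no read in the compared libraries. Ser12, CG17239, CG17234, Send1 and CG31681 lie at -6.39 or lower; their fitted size depends on the prior count because the positive side had 0 or 1 read.

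Across the 3 nearest table genes on each side of each member, 35 different genes are not members, and the edgeR test of the authors' deposited table called 4 of them, where it called 4.49% of all genes. The calls were CG44252 on the positive side, and Ser12, CG43090 and Btd on the negative side. CG43090, the gene next to CG32751, had 0, 0 and 0 reads in the positive-side libraries, against 269, 280 and 231 reads in the negative-side libraries. CG44252, near CG9897, had a log2 fold change of 2.23 in the authors' deposited table (implied SE 0.46, edgeR adjusted p 6.72e-05). Btd, also near CG32751, lay at -2.05 there (implied SE 0.63, adjusted p 0.0290). The proteases beside CG32277 were not called: CG32269 and CG32270 each had -0.21 (implied SE 1.46) and an adjusted p of 1 in the same test. Each averaged 0.198 CPM over the 12 libraries, and the wide SE leaves a large difference undetectable. Whether these 2 share reads was not tested. For CG42694, a protease homologue gene (SPH247) beside CG32834, the table gives -0.02 (implied SE 0.21) at 8.82 CPM.

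The distribution of the called members was looked for among other genes, by a rule set after these values were seen. It asked for 3 or more reads in each library of 1 side and at most 2 reads in the other 9 libraries, among called genes with a log2 fold change beyond 3 in size. On the positive side 7 of 73 such genes met it, and on the negative side 28 of 117, of which 7 are members. The scan also asked for exactly 1 solution and had an upper limit on reads. Abundant genes among the 73 and 117 therefore could not meet the rule. Among the genes that met it on the negative side, CG43090 had the most reads, with 0 on the positive side, against 780 on the negative side. Drosomycin (Drs), which encodes an antifungal peptide, had 0 and 565, and CG42705 had 0 and 449. Among the 21 genes outside the set, 5 carry a serine protease or homologue name: Ser12, CG31265, CG17475, CG8299 and CG31267. Apart from Ser12 these were scarce, and CG31265 had 0, 0 and 0 reads on the positive side, against 6, 6 and 5 reads on the negative side. Such names were not counted over all genes or among the positive-side genes that met the rule. The 5 are therefore not read as a feature of this distribution.

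Genes that build the spermatheca have rows but were not called. Of 5 regulators and enzymes of that organ, 0 were called by the edgeR test and 1, Notch (N), had an unadjusted p under 0.05. Hr39 averaged 57.5 CPM, and the authors' deposited table puts its log2 fold change at 0.14 (implied SE 0.25). The table gives lz, the Runx factor, -0.22 (implied SE 1.48) at 0.776 CPM, where the wide SE leaves a large difference undetectable. For Gld, the glucose dehydrogenase of spermathecae and ejaculatory ducts, it gives -0.03 (implied SE 0.32) at 0.595 CPM. The list's median was 0.14, beside 0.00 over all genes. Hr39, N and the sex determination factor gene dsx also act in other tissues, and the averages include the 6 further libraries.

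Markers of other tissues were set beside the members. Of 21 genes of the male accessory gland and ejaculatory tissues 13 have a row, and the edgeR test called 1, antr, on the positive side, where the authors' deposited table lists it at 2.05 (implied SE 0.60). The list's median was 0.40, and 0.00 when genes with at most 3 reads on each side were set at 0 and others with no read on 1 side at their 3-read bound. The 10 whose reads could be recovered held 15 reads in all on the positive side, against 8 on the negative side and 45 in the further libraries. Single genes went either way, with 2 and 0 reads for Acp26Aa, 0 and 2 for Acp53Ea, and 1 and 2 for Acp26Ab. Of 4 adult female fat body genes 0 were called, and fit, a gene of the female head fat body, had 0.83 (implied SE 0.28, adjusted p 0.0562). Of 14 eggshell genes 0 were called and 0 had an unadjusted p under 0.05, with a median log2 fold change of 0.20 at a median average of 1360 CPM. The Malpighian tubule genes lay on the members' side, with 4 of 5 called there in the edgeR test of the authors' deposited table, among them the urate oxidase gene Uro with -4.38 (implied SE 0.35). Their median was -3.06. The part of these tissues in the proteases' result was not tested.

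Lists of other secreted proteases held calls in both directions. Of 30 trypsin-like and Jonah proteases listed for the midgut, the edgeR test of the authors' deposited table called 19 positive and 3 negative, with a median log2 fold change of 1.44. The 3 negative ones were Ser12, etaTry with -1.80 (implied SE 0.45) and lambdaTry with -0.94 (implied SE 0.27). Of 20 proteases of the Toll and dorsoventral cascades and of epithelia with a row, 1 was called positive, modSP, and 2 were called negative, spirit and spheroide, with a median of 0.07. Among 27 serpins with a row, inhibitors of such proteases, 1 was called, Spn47C, with 1.83 (implied SE 0.51) on the positive side, and the median of 0.44 becomes 0.07 under the same setting of genes with few reads. Of 6 octopamine genes, which act in the female tract, 0 were called and 2 had an unadjusted p under 0.05. The median deposited log2 fold change of the 9 members was -7.58, and -4.84 with the 6 members that had no positive-side read set at their 3-read bound.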

How the data were processed

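RNA from 200 embryos per sample was isolated with TriPure and made into libraries with a TruSeq stranded total RNA kit, per the labels' protocols, while the labels' descriptions say polyA selected. Per the submitters' processing notes the tools were FastQC, Bowtie and TopHat. No source used here states versions, read counter, strand setting or genome build, so no coordinates are given. The file is the authors' deposited table of 1 edgeR likelihood ratio comparison, with 0 columns of values per sample. Its columns, per the file headers, are the log2 fold change, log2 CPM averaged over the fit's libraries, the test statistic (a score, 1 degree of freedom) and p-values, raw and adjusted.

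The deposited calls were used with no refit, at a threshold of 0.05. Dividing a fold change's absolute log2 value by the root of its statistic gave the implied SE. Library sizes and a dispersion of 0.0533 were solved from the 12 levels of genes with 1 read and 74 levels of genes with 2 reads, with a prior count of 2. Given these, the average fixes a weighted sum of whole reads. Solutions were searched over all libraries for genes of up to 34 reads. For other genes the search allowed at most 3 reads outside the 3 libraries of the higher side and stopped at the fewest that fitted. Solutions were kept where the refitted log2 fold change (prior count 0.125, dispersion from the statistic) lay within 1e-05 of the deposited one. The steps were tested on a simulated table with known reads, made with the same formulas. CPM uses effective sizes. scipy 1.17.1 was used. Of the table's names, 99.7% matched a Release 6 symbol or synonym. Protein and promoter sequences were not used here, so the planned sequence features and protein matches were not computed.

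Members and lists were chosen with earlier results of these data known. Genes named are the members, up to 3 genes per list by unadjusted p, and called neighbours; others were named after their values were seen. Tried as alternatives were a stricter threshold of 0.01, at least 2-fold, at least 1 CPM on average, Bonferroni adjustment, and leaving out single negative-side libraries.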

Additional observations from a re-analysis of the deposited data

Results flagged for a closer look

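Send2 had 20 reads in the 6 further libraries of the authors' fit, which take no part in the comparison, against a limit of 3 reads for a gene with none. The sources used here do not say what these libraries are.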

How the results depend on the processing

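No paired analysis was possible because the deposited table carries no replicate numbers. The 7 called members stayed 7 at an adjusted p under 0.01, with a 2-fold minimum and with Bonferroni adjustment. With an average of at least 1 CPM, 1 member was left, CG31681, since the others average less over the 12 libraries. Of 667 calls among all genes, 490 had an adjusted p under 0.01 and 569 were at least 2-fold. Of the same 667, 358 had an average of at least 1 CPM and 294 passed Bonferroni adjustment. All 9 members had a negative fold change, 8 of them beyond 2 implied SE. The deposited averages alone fix only a weighted sum of reads. With every read at its lowest weight and in the compared libraries, the members' summed level there was at most 6.04 CPM, the same reads spread over all 12 libraries gave 3.26 CPM, and the recovered reads gave 4.91 CPM. The negative-side sum of 10.9 CPM ranged from 10.7 to 11.0 CPM with each library left out and was 6.78 CPM without CG31681, alternatives chosen after seeing the data. Depth limits Send2 and CG32751 most, with 10 negative-side reads each.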
